A study of Mus musculus with 2 samples.

Results

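The genes described here are 34 genes of blood and lymphatic endothelium, the cells that line vessels. They were listed by name for endothelial junctions, receptors, transcription factors and lymphatic identity, and the rule used no measured value. The list was nonetheless drawn up with earlier results of these data known, so its counts are not those of a blind choice. Of the 34, 33 matched a gene row among the 22756 rows of the count files. The other, Ccl21a, has no footprint value here and enters only the promoter search. The mice were C57BL/6, wild type and 21 days old (postnatal day 21), and their ileum, the stretch of gut before the colon, was taken after 48 h without food or from fed animals. Each condition had 1 library of ribosome footprints, the mRNA pieces that ribosomes shield from nuclease, and how many animals went into each is not stated in the labels. Footprints assigned to genes numbered 5434252 for the fasted and 5558620 for the fed library. With 1 library a condition there is no test between conditions and no replicate check, so every difference below is between these libraries. A footprint count follows both the amount of an mRNA and how much it was translated, and in whole tissue fewer cells of a type cannot be told apart from less RNA per cell.

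As background, endothelial cells are held together by VE-cadherin and other junction proteins and respond to VEGF and angiopoietin ligands through receptor tyrosine kinases found largely on this cell type. ETS and SOX family transcription factors keep endothelial genes active. In the intestinal villus a net of fenestrated capillaries takes up sugars and amino acids, and a central lymphatic vessel, the lacteal, takes up chylomicrons.

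Values are counts and, in brackets, CPM (the usual count relative to library size) after TMM scaling, which sets library sizes so that the typical gene has a ratio near 1. A log2 ratio is fasted over fed and is followed by its 95% exact interval, which covers counting error only. A gene counts as measured where the libraries together hold at least 30 of its footprints. It counts as higher or lower in the fasted library where the ratio reaches 1.5-fold and its interval leaves out 1. Defining markers of the cell type were present in both libraries, such as Cdh5 with 279 counts in the fasted library and 309 in the fed library. Cldn5, a claudin of vascular tight junctions that is not among the 34 genes, was sparser, with 22 counts in the fasted library and 37 in the fed library.

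Among the 31 measured endothelial genes, the fasted library had 14 higher and 3 lower, and 14 met neither condition. That is 45.2% higher, where 17.2% of all 11333 measured genes were higher, and 9.68% lower, where 17.3% of all measured genes were lower. The median log2 ratio of the endothelial genes was 0.51, beside 0.0024 over all measured genes. Summed over the 33 genes, 7078 footprints were counted in the fasted library and 6103 in the fed library, a ratio of 1.48 (95% interval 1.43 to 1.54) after scaling. The size of this difference depends on the scaling. Plain CPM, in which each library is divided by its own total, lowers every log2 ratio by 0.32, and with it 5 endothelial genes were higher and 7 lower, where 8.86% of all measured genes were higher and 31.2% lower. The 5 that were higher under both scalings were Mmrn1, S1pr1, Pecam1, Lyve1 and Erg, and the 3 that were lower under both were Aplnr, Pdpn and Icam2. All of these but Erg and Aplnr are among 12 listed genes that other cells also make, which are taken up below. At a threshold of 2-fold with TMM, 5 endothelial genes were higher, where 8.25% of all measured genes were, and 2 were lower, where 9.14% were. The shares of all measured genes at 1.5-fold are the background for the counts of each smaller group of genes below.

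**Figure D1:**
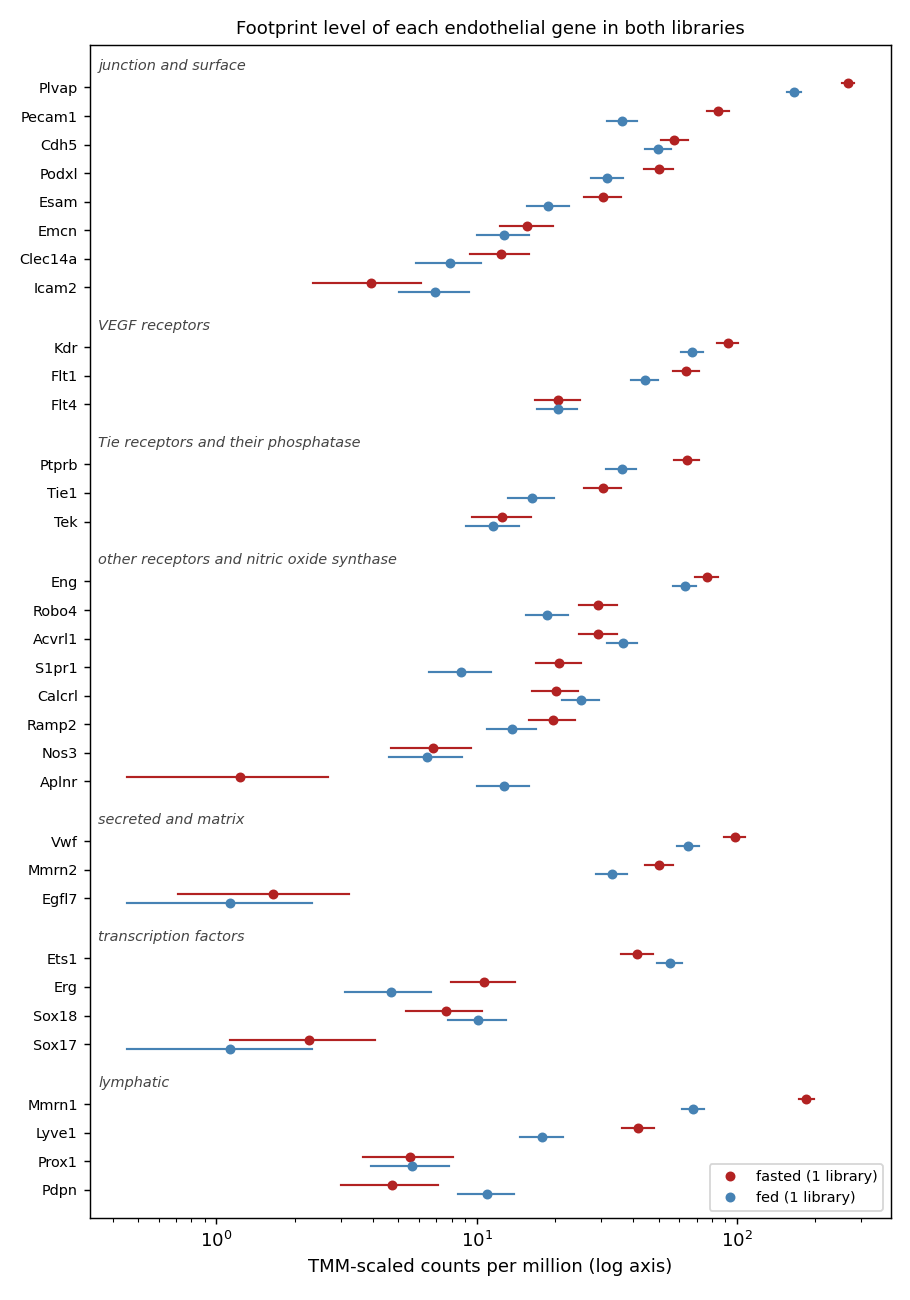
Footprint level of the 33 endothelial genes in TMM-scaled CPM on a log axis, grouped by role, with the fasted library (red, upper point) and the fed library (blue, lower point) and 95% exact Poisson intervals. Plvap is highest in both libraries, at 267 in the fasted library and 165 in the fed library, and Aplnr has the widest gap, at 1.23 in the fasted library and 12.7 in the fed library.

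Genes of the endothelial junction and surface were mostly higher in the fasted library with TMM. Of the 8, 5 (62.5%) were higher, 1 (12.5%) was lower and 2 were neither (median log2 ratio 0.65). Of all measured genes 17.2% were higher and 17.3% lower. With plain CPM only Pecam1 stayed higher, 1 gene was lower and 6 were neither. With that scaling 8.86% of all measured genes were higher and 31.2% lower. Plvap, which forms the diaphragms of capillary fenestrae, had 1296 counts (267 CPM) in the fasted library and 1028 (165 CPM) in the fed library, a log2 ratio of 0.69 (0.57 to 0.81). Pecam1, the adhesion molecule CD31 (chromosome 11, 106654217 to 106750628, mm10), had 412 counts (84.8 CPM) in the fasted library and 225 (36.2 CPM) in the fed library, a log2 ratio of 1.23 (0.99 to 1.47). Cdh5, which encodes VE-cadherin, the main adherens junction protein of these cells, was close between the libraries, at 279 counts (57.4 CPM) in the fasted library and 309 (49.7 CPM) in the fed library (log2 ratio 0.21, -0.031 to 0.45). These junction genes therefore did not share a ratio: the interval of Pecam1 lies wholly above that of Cdh5.

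Podxl, a sialomucin of the luminal surface, had 243 counts in the fasted library and 197 in the fed library (log2 ratio 0.66, 0.38 to 0.94). Esam, an adhesion molecule of endothelial tight junctions, had 148 in the fasted library and 117 in the fed library (0.69, 0.33 to 1.06), and Clec14a, a C-type lectin that binds Mmrn2, had 60 in the fasted library and 49 in the fed library (0.64, 0.079 to 1.22). All 3 passed 1.5-fold with TMM and none of them did with plain CPM. Emcn, the capillary and venous sialomucin endomucin, had 76 counts in the fasted library and 79 in the fed library (0.30, -0.17 to 0.77). Icam2, an adhesion molecule that leukocytes and platelets also carry, was the lower gene of this group, with 19 counts in the fasted library and 43 in the fed library (-0.80, -1.68 to -0.013), and its interval barely excluded 1.

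None of the 3 VEGF receptors reached 1.5-fold. Kdr (VEGFR2), the main signalling receptor for VEGF-A, had 447 counts (92.0 CPM) in the fasted library and 419 (67.4 CPM) in the fed library, a log2 ratio of 0.45 (0.25 to 0.64). Flt1 (VEGFR1), which binds VEGF-A tightly and limits its action on Kdr, had 310 counts (63.8 CPM) in the fasted library and 275 (44.2 CPM) in the fed library (0.53, 0.29 to 0.77). Both intervals lie above 0, short of the threshold by their ratios. Flt4 (VEGFR3), the receptor for VEGF-C on lymphatic vessels, had 100 counts in the fasted library and 127 in the fed library (0.012, -0.38 to 0.40). With plain CPM the log2 ratios were 0.13 for Kdr, 0.21 for Flt1 and -0.31 for Flt4, so the sign of Flt4 depends on the scaling. The balance of Flt1 to Kdr footprints per coding length, which needs no scaling between libraries, was 0.70 (0.60 to 0.81) in the fasted library and 0.66 (0.57 to 0.77) in the fed library. With the median annotated coding length in place of the longest it was 0.92 (0.80 to 1.07) in the fasted library and 0.87 (0.75 to 1.02) in the fed library. Those intervals include 1.

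In the angiopoietin pathway, Tie1 and Ptprb were higher in the fasted library and Tek was neither. Tek (TIE2) is the angiopoietin receptor, Tie1 its co-receptor, and Ptprb the phosphatase VE-PTP that dampens Tek and VE-cadherin signalling. Tie1 had 148 counts (30.5 CPM) in the fasted library and 101 (16.2 CPM) in the fed library (log2 ratio 0.90, 0.53 to 1.29), and with plain CPM it was just short of 1.5-fold at 0.58. Ptprb had 311 counts (64.0 CPM) in the fasted library and 224 (36.0 CPM) in the fed library (0.83, 0.58 to 1.08; 0.51 with plain CPM). Tek had 61 counts in the fasted library and 72 in the fed library (0.12, -0.40 to 0.63). Tek footprints per coding length stood at 0.42 (0.30 to 0.56) of those of Tie1 in the fasted library and at 0.72 (0.52 to 0.98) in the fed library. These intervals overlap slightly, which does not by itself show that the balance was the same in both libraries.

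**Figure D2:**
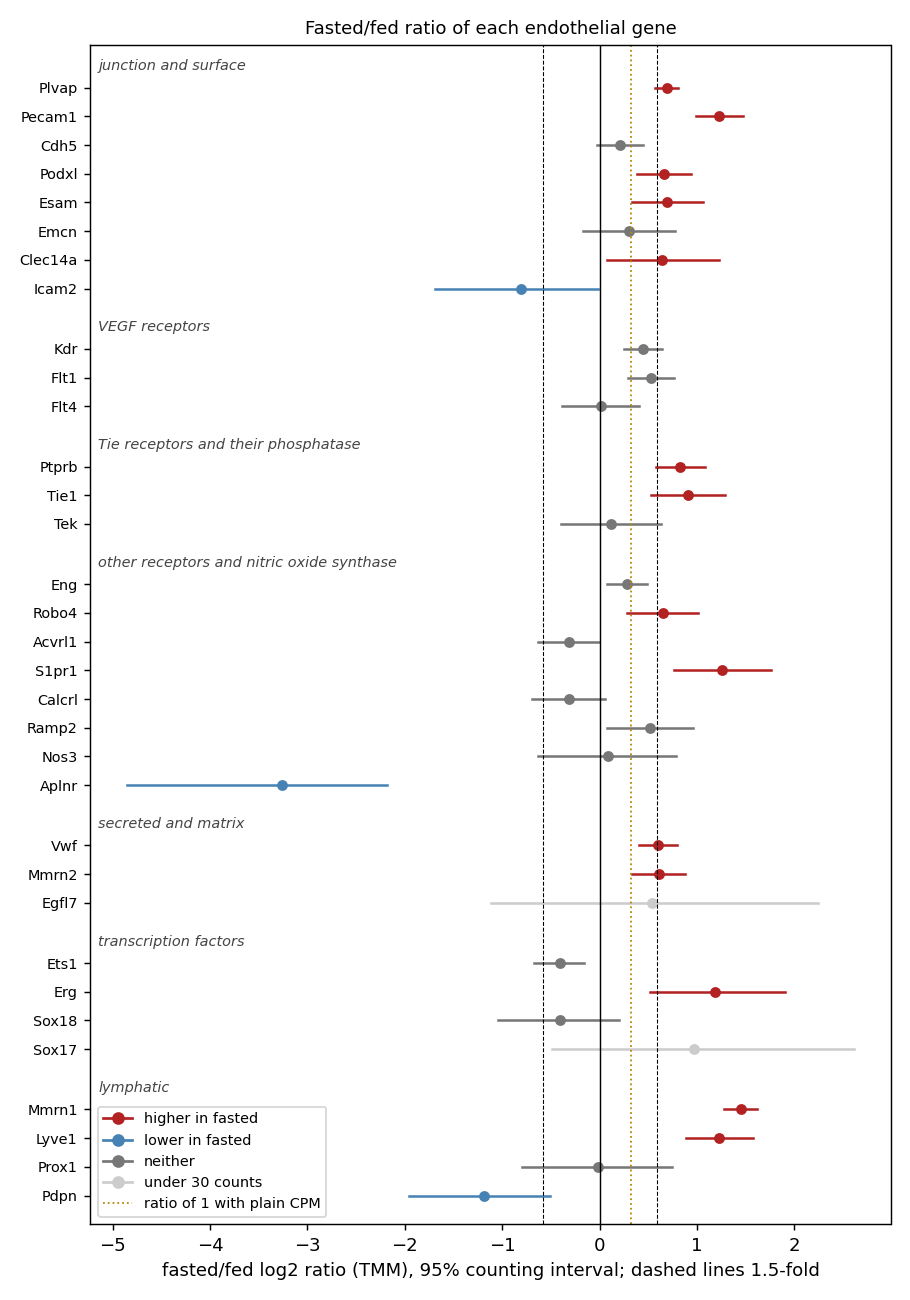
Fasted/fed log2 ratio (TMM) of the 33 endothelial genes with 95% counting intervals, grouped by role. Red marks the 14 genes higher and blue the 3 lower in the fasted library; dashed lines mark 1.5-fold and the dotted line, at 0.32, marks a ratio of 1 with plain CPM.

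The other receptors went both ways, with 2 of 8 higher, 1 lower and 5 neither (median 0.18, and -0.14 with plain CPM, where 1 was higher and 3 lower). Aplnr (ENSMUSG00000044338, chromosome 2, 85136225 to 85139923, plus strand), the receptor for apelin that marks sprouting and venous endothelium, had 6 counts (1.23 CPM) in the fasted library and 79 (12.7 CPM) in the fed library. It was 10.3-fold lower, a log2 ratio of -3.26 (-4.85 to -2.18), and 99.7% of all measured genes had a higher ratio. This is the largest difference in either direction among the 31 measured endothelial genes, and it rests on few footprints. S1pr1, the sphingosine 1-phosphate receptor that steadies endothelial junctions and that lymphocytes also use, had 101 counts (20.8 CPM) in the fasted library and 54 (8.69 CPM) in the fed library (1.25, 0.77 to 1.76). Robo4, a guidance receptor that stabilises vessels, had 142 counts in the fasted library and 116 in the fed library (0.65, 0.28 to 1.01; 0.32 with plain CPM).

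Eng (endoglin) and Acvrl1 (ALK1) together receive BMP9 and BMP10, and neither reached 1.5-fold with TMM. Eng had 372 counts (76.5 CPM) in the fasted library and 392 (63.1 CPM) in the fed library (log2 ratio 0.28, 0.071 to 0.49); its exons overlap those of Fpgs on the opposite strand, which had 70 counts in the fasted library and 104 in the fed library. Acvrl1 had 142 counts (29.2 CPM) in the fasted library and 226 (36.4 CPM) in the fed library (-0.31, -0.63 to -0.0062), and with plain CPM it was lower at -0.64. The ratio of Eng to Acvrl1 footprints per coding length was 2.01 (1.66 to 2.46) in the fasted library and 1.33 (1.13 to 1.58) in the fed library, intervals that do not overlap. Calcrl and Ramp2 form the adrenomedullin receptor, Calcrl as its G protein-coupled part and Ramp2 as the accessory subunit that sets its ligand. Calcrl had 98 counts in the fasted library and 156 in the fed library (-0.31, -0.70 to 0.058; lower with plain CPM at -0.64). Ramp2 had 95 in the fasted library and 85 in the fed library (0.51, 0.078 to 0.96), and its annotated exons overlap those of Vps25 on the same strand. Vps25 had 387 counts in the fasted library and 307 in the fed library, and the effect of this overlap on the Ramp2 counts was not tested. Calcrl footprints per coding length were 0.42 (0.31 to 0.56) of those of Ramp2 in the fasted library and 0.75 (0.57 to 0.99) in the fed library, so the subunits of 1 receptor did not keep one ratio. With the median annotated coding length the values were 0.23 (0.17 to 0.31) in the fasted library and 0.41 (0.31 to 0.54) in the fed library. Nos3, the endothelial nitric oxide synthase, had 33 counts in the fasted library and 40 in the fed library (0.081, -0.63 to 0.78). These pairs were set side by side with their values known.

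The 2 measured secreted and matrix genes were both just past 1.5-fold. Vwf, the clotting factor stored in endothelial granules and in platelets, had 476 counts (97.9 CPM) in the fasted library and 403 (64.8 CPM) in the fed library (log2 ratio 0.59, 0.40 to 0.79). Mmrn2, an endothelial matrix protein that binds Clec14a, had 244 counts (50.2 CPM) in the fasted library and 205 (33.0 CPM) in the fed library (0.61, 0.33 to 0.88). Both were under 1.5-fold with upper-quartile scaling and with plain CPM. Egfl7, a secreted endothelial factor, had 8 counts in the fasted library and 7 in the fed library and was too low to be measured. Its exons overlap those of Gm20532 on the same strand and of Agpat2 on the opposite strand. Gm20532 has no gene row here under that symbol, while Agpat2 had 522 counts in the fasted library and 962 in the fed library. How many Egfl7 reads were lost to these overlaps was not tested.

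Among the transcription factors Erg, an ETS factor that maintains endothelial identity, was higher, while Ets1 and Sox18 were neither and had log2 ratios below 0. Erg (chromosome 16, 95359169 to 95586593) had 52 counts (10.7 CPM) in the fasted library and 29 (4.67 CPM) in the fed library, a log2 ratio of 1.19 (0.52 to 1.91). Ets1, an ETS factor shared with lymphocytes, had 201 counts (41.4 CPM) in the fasted library and 342 (55.0 CPM) in the fed library (-0.41, -0.67 to -0.16). Sox18, a SOX factor of vascular and early lymphatic development, had 37 counts in the fasted library and 63 in the fed library (-0.40, -1.04 to 0.20). With plain CPM Ets1 and Sox18 both passed the threshold as lower, at -0.73 each. Sox17, the arterial SOX factor, had 11 counts in the fasted library and 7 in the fed library and was not measured. Erg and Ets1 thus lie on opposite sides of 0 under both scalings, with intervals that do not overlap.

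Promoter windows from RefSeq on GRCm38.p6, the assembly of mm10, were present for 16 of the 34 genes, and the 250 bases before the first listed start were searched on both strands for letters of ETS, SOX, GATA and FOX motifs. AGGAAG (or CTTCCT) was in 8 of 16 windows, where 29.2% of 27025 gene windows held it. The 8 include the window of Ccl21a, which has no footprint value here. The second ETS form, CCGGAA (or TTCCGG), was in 1 of 16 (6.25%), where 12.2% of all windows held it, and at least 1 of the forms was in 9 of 16 (56.2%), against 38.01% of all. The SOX core ACAAT (or ATTGT) was in 7 of 16 (43.8%), where 28.3% of all windows held it. The GATA core GATAA (or TTATC) was in 1 of 16 (6.25%), where 23.0% of all windows held it, and the FOX core GTAAACA (or TGTTTAC) in 1 of 16 (6.25%), where 3.09% held it. The windows of 3 genes are printed 5′ to 3′ on the strand of the gene to show where the ETS letters, in capitals, lie: those of Flt1 (chr5:147726012-147726261, minus strand), Eng (chr2:32646345-32646594, plus strand) and Erg (chr16:95586594-95586843, minus strand).
Flt1: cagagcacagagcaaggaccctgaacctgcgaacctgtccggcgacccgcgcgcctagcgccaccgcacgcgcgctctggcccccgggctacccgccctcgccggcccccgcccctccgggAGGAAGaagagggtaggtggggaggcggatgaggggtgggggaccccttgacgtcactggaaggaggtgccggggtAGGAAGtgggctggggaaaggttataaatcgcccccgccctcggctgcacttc
Eng: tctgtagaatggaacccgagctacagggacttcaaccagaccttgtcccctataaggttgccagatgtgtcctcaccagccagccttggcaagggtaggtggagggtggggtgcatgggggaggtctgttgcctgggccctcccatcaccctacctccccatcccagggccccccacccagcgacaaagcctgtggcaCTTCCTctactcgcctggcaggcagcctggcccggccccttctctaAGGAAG
Erg: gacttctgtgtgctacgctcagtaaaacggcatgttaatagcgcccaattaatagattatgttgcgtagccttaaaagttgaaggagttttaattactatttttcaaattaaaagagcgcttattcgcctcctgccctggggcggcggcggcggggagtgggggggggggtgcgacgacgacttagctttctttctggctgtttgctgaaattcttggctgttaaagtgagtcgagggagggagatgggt
The Flt1 matches begin 129 and 53 bases before the start and those of Eng 52 and 6 bases before it, while the window of Erg, itself an ETS factor, holds neither form. Flt1 and Eng were among the genes that did not reach 1.5-fold and Erg was higher in the fasted library. A match of letters is a description of the sequence, not a site of binding.

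Lymphatic genes held both the highest ratio and the second lowest. Of the 4 analysed, 2 were higher, 1 was lower and 1 was neither, under TMM and under plain CPM alike. Mmrn1 (ENSMUSG00000054641, chromosome 6, 60924976 to 60989378, plus strand), a multimerin of lymphatic endothelium and platelets, had 897 counts (185 CPM) in the fasted library and 420 (67.6 CPM) in the fed library. It was 2.73-fold higher, a log2 ratio of 1.45 (1.28 to 1.62), and 3.51% of all measured genes had a higher ratio. Lyve1, a hyaluronan receptor of lymphatic endothelium that some macrophages also carry, had 203 counts (41.8 CPM) in the fasted library and 111 (17.9 CPM) in the fed library (1.22, 0.89 to 1.57). Prox1, the transcription factor that sets lymphatic identity and that is also found in enteroendocrine cells, was at 27 counts in the fasted library and 35 in the fed library (-0.013, -0.80 to 0.75). Pdpn (podoplanin), a mucin-like protein of lymphatic endothelium and fibroblastic stroma, had 23 counts (4.73 CPM) in the fasted library and 68 (10.9 CPM) in the fed library, 2.31-fold lower (-1.19, -1.96 to -0.51). Flt4, given with the VEGF receptors, is the further lymphatic receptor and lay near 0. The lymphatic markers therefore did not move as a block: Lyve1 footprints per coding length were 17.4 times those of Prox1 (11.6 to 27.1) in the fasted library and 7.35 times (4.99 to 11.1) in the fed library. Mmrn1 and its vascular relative Mmrn2 also differed, at 2.87 Mmrn1 footprints per Mmrn2 footprint of equal coding length (2.48 to 3.31) in the fasted library and 1.60 (1.35 to 1.90) in the fed library. These levels depend on the coding length. With the median annotated length Mmrn1 over Mmrn2 was 1.70 (1.47 to 1.96) in the fasted library and 0.95 (0.80 to 1.12) in the fed library, while the gap between the libraries is the same by construction.

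Several of these genes are also made by other cells of the gut wall, and markers of those cells were measured in the same libraries. The 10 macrophage markers held 2 higher, 1 lower and 7 neither, and the list summed to 706 CPM in the fasted library and 506 CPM in the fed library. Cd163, a scavenger receptor of resident macrophages, had 245 counts in the fasted library and 59 in the fed library (log2 ratio 2.40, 1.99 to 2.84), while Mrc1, a mannose receptor, had 280 in the fasted library and 335 in the fed library (0.097, -0.14 to 0.33). Mertk, a receptor for dying cells, was higher (1.09, 0.92 to 1.26) and Fcgr1, an antibody receptor, was lower (-0.88, -1.78 to -0.077). The part of macrophages in the Lyve1 ratio was not tested. For platelets, which share Vwf, Mmrn1 and Pecam1, the 8 markers with a row summed to 22.6 CPM in the fasted library and 30.7 CPM in the fed library. Most of that sum was Itgb3, an integrin subunit that other cells also make, with 79 counts in the fasted library and 152 in the fed library (-0.58, -1.0001 to -0.19). Pf4, platelet factor 4, had 16 counts in the fasted library and 33 in the fed library, and Itga2b, a platelet integrin subunit, had 5 in the fasted library and 6 in the fed library. Going the other way, Gp1bb had 7 counts in the fasted library and 0 in the fed library, Gp6 had 2 in the fasted library and 0 in the fed library, and Ppbp had 1 in the fasted library and 0 in the fed library. Gp1ba and Gp9 had 0 counts in both libraries. The part of platelets in the Vwf, Mmrn1 and Pecam1 ratios was not tested. For T lymphocytes, which share Ets1, S1pr1 and Icam2, 10 markers summed to 127 CPM in the fasted library and 194 CPM in the fed library, with 2 lower, 0 higher and 8 neither. The lower ones were Ptprc, the leukocyte antigen CD45 (-0.87, -1.06 to -0.69), and Cd3g, a part of the T cell receptor complex (-0.70, -1.35 to -0.091). Most of the sum was Ptprc, with 344 of 615 counts in the fasted library and 804 of 1207 in the fed library. Cd4, among the 8 that were neither, had a log2 ratio above 0 (0.43, 0.011 to 0.85). The part of T lymphocytes in the Ets1, S1pr1 and Icam2 values was not tested. Without the 12 genes that leukocytes, platelets, epithelium or other cells also make, 7 of 19 measured endothelial genes were higher and 1 was lower, at a median of 0.45, and the summed ratio was 1.35 (1.29 to 1.42). These TMM shares were 36.8% higher and 5.26% lower, where 17.2% of all measured genes were higher and 17.3% lower. With plain CPM, 1 of those 19 was higher and 4 were lower, where 8.86% of all measured genes were higher and 31.2% lower.

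**Figure D3:**
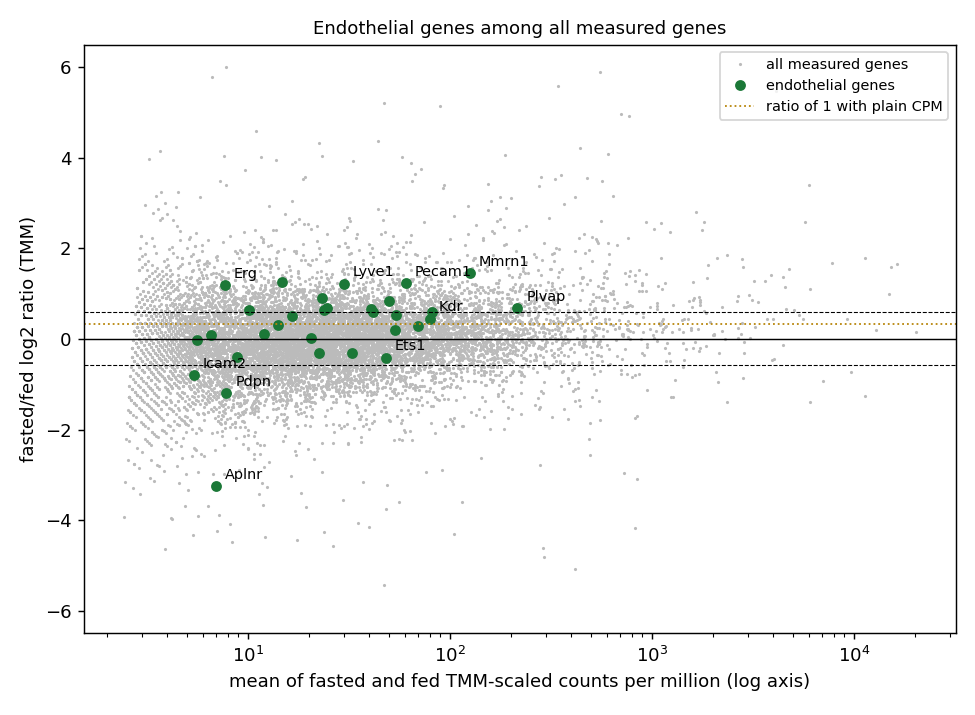
Fasted/fed log2 ratio (TMM) against the mean of both libraries in TMM-scaled CPM (log axis) for all 11333 measured genes (grey) and the 31 measured endothelial genes (green). Most endothelial genes lie above 0, with a median of 0.51, inside the cloud of all genes, and Aplnr lies apart at -3.26.

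Markers of other cells of the ileal wall were set beside the endothelial list. Of 10 smooth muscle markers 6 were lower in the fasted library and 0 higher, at a median log2 ratio of -0.70 and a summed level of 3238 CPM in the fasted library and 5673 CPM in the fed library. The lowest by ratio were the contractile genes Actg2 (-1.85, -1.95 to -1.75), Tagln (-1.54, -1.69 to -1.40) and Cnn1 (-1.38, -1.55 to -1.22). Fibroblast markers had 6 of 10 lower and 2 higher (median -0.73), and 8 lower and 0 higher with plain CPM. Col3a1, a fibrillar collagen, had 854 counts in the fasted library and 9379 in the fed library, and Col1a1 (-2.95, -3.06 to -2.85) and Col1a2 (-1.80, -1.89 to -1.71) were lower as well. Dcn, the proteoglycan decorin, had 3748 counts in the fasted library and 2696 in the fed library (0.83, 0.76 to 0.90). Dcn and Pdgfra, a growth factor receptor (0.72, 0.60 to 0.84), were higher with TMM and neither with plain CPM. Markers of pericytes and other mural cells, which wrap around the same vessels, had 1 of 7 measured higher and 6 neither, at a median of -0.093 (1 higher and 2 lower with plain CPM). Their summed level was 561 CPM in the fasted library and 477 CPM in the fed library, a ratio of 1.18 (1.12 to 1.24), so the sum and the median differ in direction. The higher one was Kcnj8, a potassium channel subunit, with 124 counts in the fasted library and 68 in the fed library (1.22, 0.78 to 1.67). Epithelial markers were near 0 at a median of 0.087, with Vil1, the microvillus protein villin, higher (0.65, 0.63 to 0.68), Krt18, a keratin, lower (-0.87, -0.96 to -0.77) and 8 of 10 neither. With plain CPM 0 epithelial markers were higher and 3 lower. Red cell markers, a sign of blood in the tissue, were scarce but summed to 23.7 CPM in the fasted library and 9.65 CPM in the fed library, with the globin genes Hba-a1 (1.46, 0.72 to 2.28) and Hba-a2 (1.23, 0.30 to 2.27) higher. Hba-a1 stayed higher with plain CPM and Hba-a2 was then neither. Mesothelial markers summed to 47.7 CPM in the fasted library and 45.9 CPM in the fed library, and glial markers to 21.8 CPM in the fasted library and 10.9 CPM in the fed library, with Cdh19, a cadherin of Schwann-lineage glia, higher (1.67, 0.9992 to 2.42). The part of blood in the tissue, or of any of these cells, in the endothelial ratios was not tested. With plain CPM the medians were -1.02 for smooth muscle, -1.06 for fibroblasts, -0.42 for mural cells and 0.19 for the endothelial genes, each lower by the common shift.

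**Figure D4:**
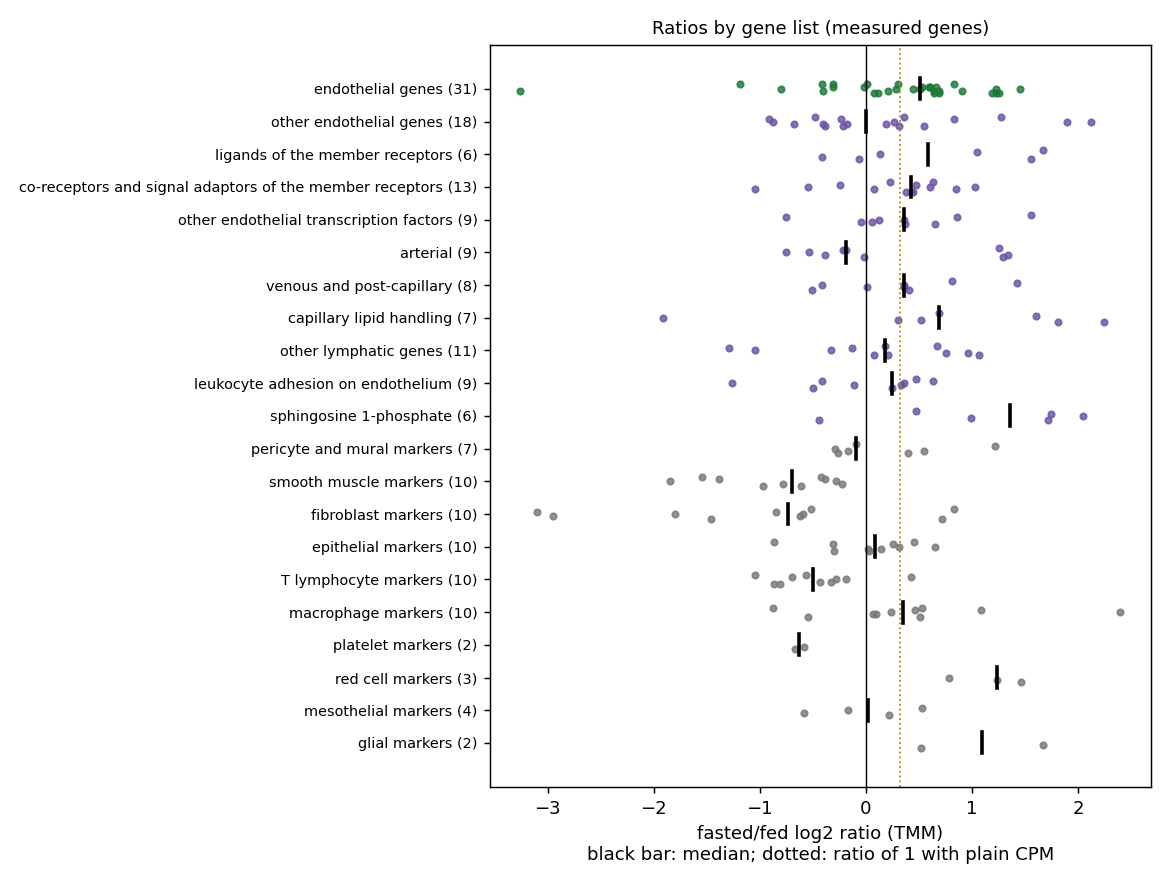
Fasted/fed log2 ratio (TMM) of each measured gene by list, with the number of measured genes in brackets and the median as a black bar; green is the endothelial list, violet its related lists and grey the markers of other cell types. The endothelial median of 0.51 lies above those of the smooth muscle (-0.70) and fibroblast (-0.73) lists and below those of the sphingosine 1-phosphate (1.35), red cell (1.23), glial (1.096), capillary lipid (0.69) and ligand (0.59) lists.

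Compared per coding length, the endothelial genes spanned a wide range of levels. In the fasted library Plvap was highest at 203 CPM per kb of coding sequence, followed by Mmrn1 (50.9), Lyve1 (43.8), Eng (39.1) and Pecam1 (38.6). In the fed library Plvap was again first at 126 CPM per kb, followed by Ets1 (41.7), Eng (32.2), Acvrl1 (24.14) and Ramp2 (24.12). Plvap and Eng were thus the genes among the top 5 of both libraries. This order depends on the coding length used: with the median annotated length, 2 of the 5 highest genes in the fasted library stayed among its top 5. At the low end, Sox17, Nos3, Egfl7, with the overlaps given above, and Prox1 were among the 5 lowest of both libraries. Neighbours in this order were mostly within counting error: the interval of the ratio excluded 1 for 2 of 32 adjacent pairs in the fasted library and 5 of 32 in the fed library. Plvap stood 3.99-fold (3.66 to 4.35) over Mmrn1, the next gene, in the fasted library and 3.02-fold (2.67 to 3.42) over Ets1 in the fed library. With the median length the next gene was Esam in both, and Plvap stood 1.43-fold (1.21 to 1.71) over it in the fasted library and 1.44-fold (1.19 to 1.76) in the fed library.

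Of the ligands that act on these receptors, 6 of 12 with a row were measured, and under both scalings 3 had a higher value in the fasted library, 0 a lower one and 3 neither. Vegfa, the ligand of Kdr and Flt1, had 364 counts (74.9 CPM) in the fasted library and 158 (25.4 CPM) in the fed library (log2 ratio 1.56, 1.29 to 1.84). Adm, the adrenomedullin peptide that Calcrl and Ramp2 bind, had 38 counts in the fasted library and 15 in the fed library (1.67, 0.80 to 2.66), and Angpt2, which modulates Tek, had 44 in the fasted library and 27 in the fed library (1.05, 0.34 to 1.81). Vegfc, the ligand of Flt4, had 18 counts in the fasted library and 31 in the fed library (-0.41, -1.35 to 0.45). Apln, a ligand of Aplnr, was at 2 counts in the fasted library and 5 in the fed library, too few for a ratio.

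Co-receptors and signal adaptors had 4 of 13 measured genes higher, 1 lower and 8 neither (median 0.43), and 1 higher and 2 lower with plain CPM. The higher ones included Smad1 (0.64, 0.41 to 0.87), which carries the ALK1 signal, and Smad6 (0.85, 0.25 to 1.47) and Smad7 (1.03, 0.53 to 1.55), inhibitors that this signal induces; the lower one was Ccm2 (-1.04, -1.999 to -0.21), an adaptor that steadies vessel walls. Nrp1, the VEGF-A co-receptor, had 468 counts in the fasted library and 460 in the fed library (0.38, 0.19 to 0.57). Among 9 measured transcription factors outside the list, Foxo1 (1.56, 1.36 to 1.76), Ets2 (0.86, 0.75 to 0.97) and Epas1 (0.66, 0.52 to 0.79) were higher and Mef2c was lower (-0.75, -1.31 to -0.22); with plain CPM Foxo1 alone remained higher. All of these are also made outside endothelium.

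Endothelial genes outside the 34 had shares of calls near those of all genes. Among 18 measured, 4 (22.2%) were higher and 3 (16.7%) lower, 11 met neither condition, and the median was 0.0060. Their summed ratio was 1.71 (1.64 to 1.78), beside 1.48 for the 34. Slco2a1, a prostaglandin transporter, gave 2522 of the 5564 summed counts in the fasted library and 864 of the 4157 in the fed library. The furthest apart were Slco2a1 (1.90, 1.79 to 2.01), Adgrf5, an adhesion receptor, with 622 counts in the fasted library and 328 in the fed library (1.28, 1.08 to 1.48), and Cyyr1 (2.12, 0.94 to 3.64). The lower ones were Thbd, the anticoagulant thrombomodulin, with 246 counts in the fasted library and 592 in the fed library (-0.91, -1.13 to -0.69), Cd34 (-0.68, -1.12 to -0.27), a sialomucin that fibroblasts and progenitors also carry, and Ecscr (-0.88, -1.65 to -0.18). Arterial genes had 3 of 9 higher and 1 lower at a median of -0.19 (3 higher and 3 lower with plain CPM), with Sema3g (1.26, 0.75 to 1.79), Notch4 and Gja4 (1.29, 0.43 to 2.25), a gap junction protein, higher and the Notch ligand Dll4 lower, at 75 counts in the fasted library and 162 in the fed library (-0.75, -1.17 to -0.35). Venous and post-capillary genes had 2 of 8 higher and 0 lower (median 0.36; 1 higher and 2 lower with plain CPM), these being Ackr1 (1.43, 0.49 to 2.48), a chemokine-binding receptor of venules, and Lrg1 (0.81, 0.093 to 1.56). Further lymphatic genes had 3 of 11 higher and 2 lower (median 0.18; 2 higher and 2 lower with plain CPM). Reln, the secreted glycoprotein reelin, was higher with 575 counts in the fasted library and 376 in the fed library (0.97, 0.78 to 1.16), as were Maf (1.07, 0.95 to 1.18) and Fgl2 (0.67, 0.53 to 0.81), and Itga9, an integrin of lymphatic valves, was lower (-1.04, -1.45 to -0.67), as was Adamts3 (-1.29, -2.83 to -0.094), a protease that helps to activate VEGF-C. Maf, Fgl2 and Itga9 are also made outside lymphatic endothelium, and the source of their footprints was not tested. Genes for leukocyte adhesion had 1 of 9 higher, Pvr (0.64, 0.23 to 1.05), and 1 lower, Cd99l2 (-1.26, -2.28 to -0.40), and with plain CPM 0 were higher and 3 lower.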

How the data were processed

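Ribosome footprints were measured in 1 fasted and 1 fed ileum library. The deposited files hold whole-number read counts per gene symbol, not normalized as the values show; cutadapt, Bowtie 1.1.2, STAR, HTSeq and mm10 appear as tools and build per the submitters' processing notes, without their roles. Annotation, strand setting and footprint length filter were not stated, so overlapping genes cannot be told apart. NA was read as 0 counts. Rows that name no gene were left out of library sizes: reads aligned to several places were 39.9% of all counted reads in the fasted file and 41.4% in the fed file, reads on no counted feature 21.0% and 13.4%, and ambiguous reads 0.196% and 0.209%.

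TMM factors came from edgeR 4.0.16 (R 4.3.3), which ran no test here. Fasted/fed ratios have 95% exact Clopper-Pearson intervals on the split of a gene's counts, and single levels have exact Poisson intervals (scipy 1.17.1); without molecular identifiers both cover counting error only. Log2 ratios had 0.5 counts added. A count of 0 allows 3 counts, or 0.617 CPM in the fasted and 0.483 CPM in the fed library. Coordinates (1-based) and the longest coding length came from GENCODE vM21 on mm10, which matched 96.4% of symbols. The counting functions were tested on simulated data.

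The genes and lists were chosen with earlier results of these data known. Named were all 34 genes and, per further list, up to 3 higher and 3 lower by the interval bound nearest to 1. A few ligands, co-receptors and markers (Vegfc, Apln, Nrp1, Cldn5, Mrc1, Cd4, Lpl and the platelet genes other than Itgb3) were named after their values were seen. Alternatives were plain CPM, DESeq2 1.42.0 size factors, upper-quartile factors, TMM without abundant genes, other minimum counts, 2-fold, 99.9% intervals, 2 added counts, means, fewer genes and median coding length.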

Additional observations from a re-analysis of the deposited data

How the results depend on the processing

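The count of 14 endothelial genes higher in the fasted library was 5 with plain CPM, 5 at 2-fold and 7 without genes that other cells also make, and lay between 11 and 14 under the other alternatives. The count of 3 lower was 7 with plain CPM, 0 with a minimum of 200 counts and 1 without genes that other cells also make, and was 2 or 3 under the others. The median log2 ratio of 0.51 was 0.19 with plain CPM and 0.27 as a mean. The summed ratio of 1.48 was 1.19 with plain CPM and 1.35 without genes that other cells also make. Without Plvap and Mmrn1 it was 1.34 with TMM and 1.07 with plain CPM. Over all genes, 1954 higher and 1962 lower became 1004 and 3536 with plain CPM, 1185 and 892 with a minimum of 200 counts, and 935 and 1036 at 2-fold. With the median annotated coding length, which counts short partial transcripts, 2 of the 5 densest genes in the fasted library remained. Plain CPM moves every ratio by one shift that is smaller than the 1.5-fold threshold, so it can end a call but not reverse one; it took 9 endothelial genes out of the higher calls and brought 4 into the lower ones. Of the 14 genes that were neither, the interval of 11 reached 1.5-fold, so at this depth a difference of that size could not be seen or set aside. Which scaling lies nearer the tissue was not tested. No paired analysis was possible because each condition had 1 library.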

Other observations

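A list of capillary and lipid-handling genes, not all of them particular to endothelium, was not described above. The fasted library had higher values for 4 of 7 measured and a lower value for 1, and 2 met neither condition (median log2 ratio 0.69; 3 higher and 1 lower with plain CPM). Gpihbp1, which anchors lipoprotein lipase on capillaries, had 53 counts in the fasted library and 19 in the fed library (log2 ratio 1.81, 95% interval 1.06 to 2.67), while Lpl, the lipase itself, had 331 in the fasted library and 343 in the fed library (0.30, 0.081 to 0.53). Rgcc, a marker of capillaries, had 94 counts in the fasted library and 25 in the fed library (2.24, 1.62 to 2.96), and Cd36, a fatty acid carrier also found on enterocytes, had 1120 in the fasted library and 472 in the fed library (1.60, 1.45 to 1.76). Lipg, the endothelial lipase, was lower with 10 counts in the fasted library and 50 in the fed library (-1.91, -3.11 to -0.97).

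Of 6 measured genes that make, export, sense or break down sphingosine 1-phosphate besides S1pr1, 4 were higher and 2 neither (median 1.35), and with plain CPM 4 were higher and 1 lower. Spns2, the exporter by which endothelium releases this lipid, had 43 counts in the fasted library and 13 in the fed library (2.04, 1.16 to 3.10). Sphk1, a kinase that makes it, had 42 in the fasted library and 16 in the fed library (1.72, 0.89 to 2.68), and the receptor S1pr3 had 77 in the fasted library and 29 in the fed library (1.75, 1.13 to 2.43). These genes are also made outside endothelium, and the source of their footprints was not tested.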
